A study of Mus musculus with 4 samples.

Results

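The ligands and receptors of the TNF superfamily were followed in lung RNA of male C57BL mice that breathed cigarette smoke or clean air. A gene was counted as a member when an array feature carried its symbol and no other in the platform annotation, and when that symbol began with Tnfsf or Tnfrsf and a digit or was Tnf, Lta, Ltb, Ltbr, Fas, Fasl, Cd40, Cd40lg, Cd27, Cd70, Eda2r or Ngfr. This rule uses names and no measured value. It found 40 of the 30142 genes with a feature of their own, 15 ligands and 25 receptors. Cd27, Tnfsf12 and Tnfsf13 lay only on features annotated to several genes and were not used. Fas and Tnfrsf19 had 2 features each, and the feature with the higher mean stands for the gene.

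The mice were 10 weeks old when exposure began and received mainstream smoke or clean air for 1 h a day on 5 days a week. Lung samples of each group were mixed into 1 pool and measured on 1 array. The 4 pools were smoke for 2 weeks (5 mice, 12 weeks old), clean air for 2 weeks (5 mice, 12 weeks old), smoke for 4 weeks (4 mice, 14 weeks old) and clean air for 4 weeks (5 mice, 14 weeks old). A pool averages its mice and no group has a second pool, so the spread between animals is not seen. Precision is limited by there being 4 arrays. The 4-week mice were also older, so exposure time and age cannot be told apart between the durations.

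Ligands of this family are mostly made as trimers anchored in the cell membrane, and many can be cut free. Receptors with a death domain bind adaptors that can activate caspases, whereas the other signalling receptors bind TRAF adaptors and mainly turn on NF-kB, a family of transcription factors of inflammation and cell survival. Some receptors costimulate T cells, some keep B cells alive, some act in epithelium, bone and connective tissue, and decoy receptors bind ligand without passing on a full signal. In the lung, alveolar macrophages are a known source of TNF, and its receptors are found on epithelial, endothelial and immune cells.

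All values below are log2 of the deposited array intensity, called the signal, and a difference is smoke minus clean air on that log2 scale. No source used here states whether the linear values are powers of 2 or of e. A 16-bit scanner can record at most 65535, yet 541 to 581 features per array exceed it, and the highest deposited value is 19.69 as a log2 but 13.65 as a natural log, which such a scanner could give if that is its log2 signal. Read as base e, every log2 difference below would be 0.693 of its size, folds would be smaller, and directions and p-values would be unchanged. All folds below are ratios of the values as deposited. Signals of different genes are not set against each other, since each probe has its own sensitivity. A gene entered the comparisons when its mean signal over the 4 arrays was above a floor of 5.82, the 40th percentile of all genes, and 31 of the 40 members and 18084 genes in all did. The test was limma's moderated test of smoke with duration as a second term. A gene passes, at an adjusted p under 0.05, when its smoke effect is big next to its error. That error blends how much the gene's effect changed with time, at 1 degree of freedom, with a spread pooled over genes, at 5.38. A true change with time therefore counts as error, and an SE below is not the gene's own spread alone. A threshold of 1.5-fold is used for each duration by itself, where no test is possible. Per the labels the tissue is lung, and Sftpc and Sftpb of alveolar type 2 cells, Ager of type 1 cells, Scgb1a1 of club cells and Pecam1 of endothelium were above the floor in all 4 pools. In bulk RNA a change in the number of cells of a type and a change in RNA per cell cannot be told apart.

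Of the 31 members tested, 2 receptors rose with smoke and 1 receptor fell. Tnfrsf26, a mouse receptor of the TRAIL receptor gene cluster, and Tnfrsf9, a costimulatory receptor of activated T and NK cells, were higher in both smoke pools. Tnfrsf12a, the receptor for the ligand TWEAK that is induced in injured epithelium and fibroblasts, was lower in both. No ligand passed. The 2 members that rose are 6.45% of the 31, against 1.15% of all genes tested, and the 1 that fell is 3.23%, against 0.315%. In either direction 3 members passed, 9.68%, against 1.47% of all genes, which is 265 genes. Tnfrsf9 entered the test through its smoke pools alone, so the shares that count it, here and below, are a description and support nothing about the family. The same holds for the shares below that count Tnf, since its clean-air pools alone had a mean signal under the floor.

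Tnfrsf26 had signals of 8.56 in the 2-week smoke pool and 7.65 in the 2-week clean-air pool. At 4 weeks its signals were 9.33 with smoke and 7.90 with clean air. Both smoke pools lay above both clean-air pools, and the difference was 0.90 at 2 weeks and 1.43 at 4 weeks, which are folds of 1.87 and 2.69. The effect over both durations was 1.17 ± 0.14 (SE), a fold of 2.24, with an adjusted p of 0.0213 in limma. It ranked 76 from the top among the effects of the 18084 genes. The 2 clean-air pools differed by 0.25, less than either smoke difference.

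Tnfrsf9 had signals of 6.10 in the 2-week smoke pool and 5.47 in the 2-week clean-air pool. At 4 weeks it had 6.46 with smoke and 5.48 with clean air. Its smoke pools were high at both times, and its clean-air pools were almost equal, 0.0063 apart. The difference was 0.63 at 2 weeks and 0.98 at 4 weeks, and the effect over both was 0.80 ± 0.12 (SE), a fold of 1.75, with an adjusted p of 0.0372 in limma. Both clean-air pools lay below the floor, so Tnfrsf9 entered the test through its smoke pools alone. It is the only tested member with both of them below. With no floor its adjusted p was 0.0479. With a mean of 5.88 it is also the member just inside the floor, next to Ngfr at 5.94 and Tnfrsf25 at 6.01, while Tnfsf11 at 5.76 and Fasl at 5.70 lie just outside.

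Tnfrsf12a had signals of 7.08 in the 2-week smoke pool and 7.68 in the 2-week clean-air pool. The 4-week signals were 7.51 with smoke and 8.23 with clean air. Both smoke pools lay below both clean-air pools, with differences of -0.60 and -0.72 and an effect over both of -0.66 ± 0.10 (SE), 1.58-fold lower, at an adjusted p of 0.0425 in limma. Its 2 clean-air pools also differed, by 0.56 with the 4-week pool higher, so pools that had no smoke were nearly as far apart as smoke and clean air at 2 weeks. Its ligand TWEAK is encoded by Tnfsf12 and was not analysed here. The call was lost with no floor, at an adjusted p of 0.062.

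None of the 3 calls held in every other processing. All 3 were lost under cyclic loess scaling, under median centring over the genes above the floor and without the duration term, with the direction of each unchanged. Leaving out 1 pool could be tested only without the duration term too, and then none passed whichever pool was left out. With the term kept, leaving out a pool leaves the difference of the other duration, which has no test and had the same sign for all 3. Median centring over all features instead gave 6 members passing, with Tnf, Tnfsf15 and Tnfrsf23 added.

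**Figure D1:**
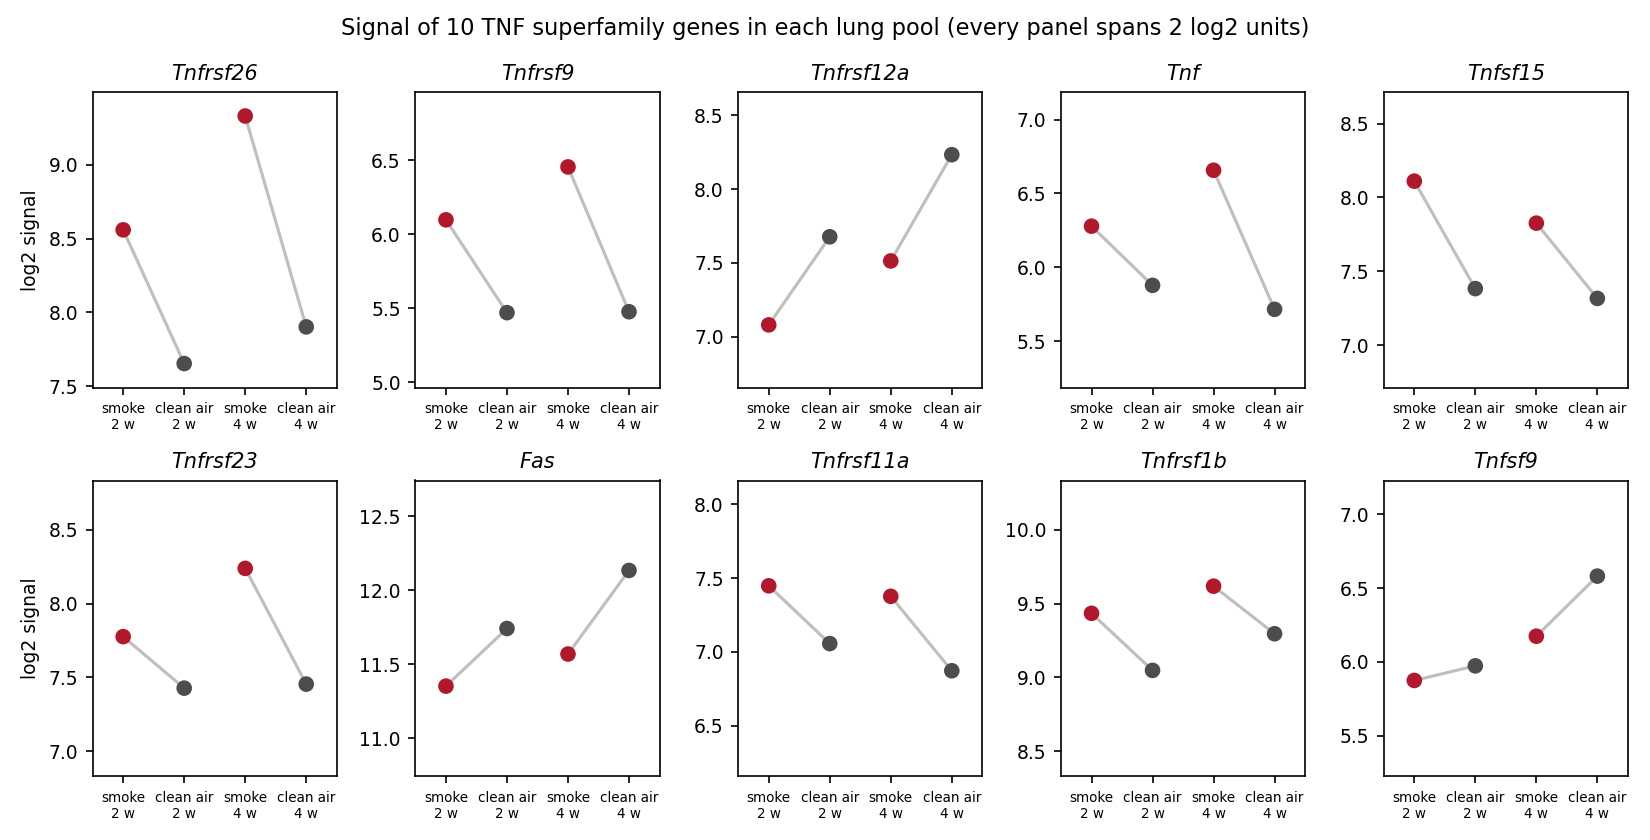
Signal of 10 TNF superfamily genes in each of the 4 lung pools. The vertical axis of each panel is the log2 signal and spans the same number of log2 units, red points are smoke pools, grey points are clean-air pools, and a line joins the pools of 1 duration, each point being 1 array. Tnfrsf26 and Tnfrsf9 lie higher in smoke at both durations, Tnfrsf12a and Fas lie lower, and Tnfsf9 differs most between its 2 clean-air pools.

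At 2 weeks, 3 members were at least 1.5-fold higher in the smoke pool, 9.68% of the 31, against 1.82% of all genes. They were Tnfrsf26, Tnfrsf9 and the ligand Tnfsf15. In the other direction 1 member, Tnfrsf12a, was at least 1.5-fold lower, 3.23% against 1.22%. At 4 weeks, 4 members were at least 1.5-fold higher, 12.9% against 2.53% of all genes, namely Tnfrsf26, Tnfrsf9, the ligand Tnf and the decoy receptor Tnfrsf23. Again Tnfrsf12a alone was lower past the threshold, 3.23% against 1.5%. Tnfrsf26 and Tnfrsf9 were past it upward at both durations, 6.45% of members against 1.13% of genes, and Tnfrsf12a downward, 3.23% against 0.337%. Under median centring over all features and under cyclic loess, Tnfrsf12a was not past the threshold at 2 weeks. Between the 2 clean-air pools, 1 member, Tnfsf9, differed by at least 1.5-fold, 3.23% against 4.09% of all genes. Read as base e, the members past 1.5-fold would be Tnfrsf26 alone at 2 weeks, and Tnf, Tnfrsf9 and Tnfrsf26 at 4 weeks, all higher. The shares of all genes would then be 0.735% higher at 2 weeks and 0.979% higher at 4 weeks, and no member would be lower past the threshold or differ between the clean-air pools.

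Separation of the pools was counted apart from size. In 10 members both smoke pools lay above both clean-air pools, 32.3% of the 31, against 15.7% of all genes. They were Tnf, Tnfsf13b, Tnfsf15, Tnfrsf1b, Tnfrsf9, Tnfrsf11a, Tnfrsf18, Tnfrsf23, Tnfrsf25 and Tnfrsf26. In 2 members, Fas and Tnfrsf12a, both smoke pools lay below, 6.45% against 16.8%. By sign alone, 14 members were higher at both durations, 45.2% against 27.2% of all genes, 5 were lower at both, 16.1% against 29.3%, and 12 had opposite signs, 38.7% against 43.5%. The median difference of the 31 members was 0.10 at 2 weeks and 0.08 at 4 weeks, and over all 18084 genes it was 0.01 and -0.02.

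**Figure D2:**
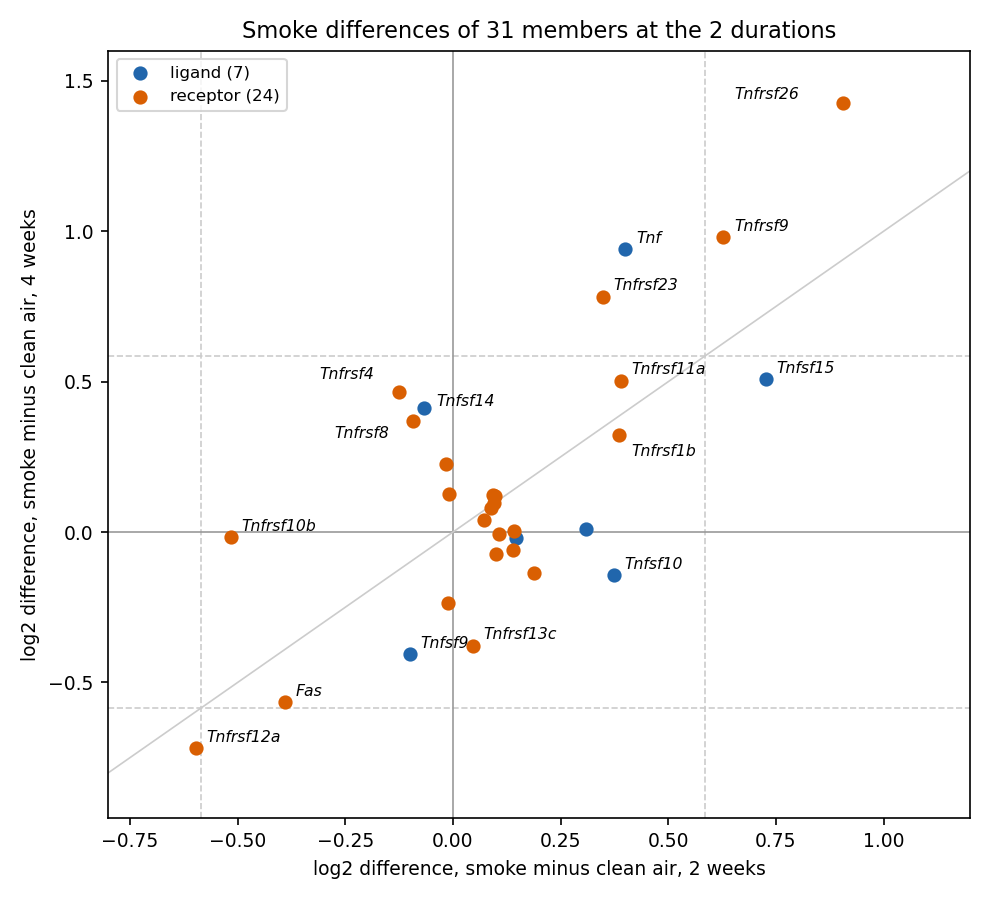
Smoke differences of the 31 members above the floor at 2 weeks (horizontal axis) and 4 weeks (vertical axis), both log2, smoke minus clean air. Each point is 1 gene, blue for the 7 ligands and orange for the 24 receptors, dashed lines mark 1.5-fold and the slanted line marks equal differences. Tnfrsf26 (0.90 and 1.43) lies at the upper right and Tnfrsf12a (-0.60 and -0.72) at the lower left, while most members lie near the centre.

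Among the ligands, 7 of 15 were above the floor and their median difference was 0.31 at 2 weeks and 0.01 at 4 weeks. Tnf, the founding cytokine of the family and a product of macrophages and T cells, had signals of 6.28 with smoke and 5.88 with clean air at 2 weeks. After 4 weeks it had 6.66 with smoke and 5.72 with clean air, and the clean-air value is just below the floor. The mean of its 2 clean-air pools is below the floor too, so Tnf entered the test because of its smoke pools. Both smoke pools were the higher ones, by 0.40 and then by 0.94, a fold of 1.92. Its effect over both durations, 0.67 ± 0.15 (SE), did not pass limma, with an adjusted p of 0.12. The effect of Tnf is close in size to that of Tnfrsf12a, but its 2 differences lie further apart.

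Tnfsf15, which costimulates T cells and is made by endothelial and myeloid cells, had 8.11 with smoke and 7.38 with clean air at 2 weeks. Its signals at 4 weeks were 7.83 with smoke and 7.32 with clean air. The differences of 0.73 and 0.51 gave an effect of 0.62 ± 0.11 (SE), and the adjusted p of 0.0603 in limma lay just over the threshold. Its receptor Tnfrsf25, a death domain receptor of T cells, had 6.03 with smoke and 5.93 with clean air at 2 weeks, and 6.08 with smoke and 5.98 with clean air at 4 weeks. Its smoke pools lay above its clean-air pools too, by only 0.10 at each time.

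Tnfsf9, the ligand of Tnfrsf9 on antigen-presenting cells, had 5.88 with smoke and 5.97 with clean air at 2 weeks. At 4 weeks it had 6.17 with smoke and 6.58 with clean air. The clean-air pools differed by 0.61, more than the smoke difference at either time, which was -0.10 and -0.41. The effect of -0.25 ± 0.12 (SE) did not pass limma, with an adjusted p of 0.495, and the sign was negative at both durations. Its pools overlapped, unlike those of its receptor.

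Tnfsf10, or TRAIL, which binds the death receptor Tnfrsf10b and the decoys Tnfrsf22 and Tnfrsf23, had 12.56 with smoke and 12.19 with clean air at 2 weeks. The 4-week signals were 12.07 with smoke and 12.22 with clean air, so the difference of 0.37 at 2 weeks had the opposite sign at 4 weeks, -0.14. Tnfsf13b, or BAFF, a survival factor of B cells, differed by 0.31 and 0.01. Tnfsf14, a ligand of Ltbr and Tnfrsf14 on T cells, differed by -0.07 and 0.41. Ltb, which forms the membrane lymphotoxin that engages Ltbr, differed by 0.15 and -0.02.

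The other 8 ligands were below the floor and are given as values with no test. They are Lta, the secreted lymphotoxin, Fasl, Cd40lg, the ligand of Cd40 on helper T cells, Cd70, Tnfsf4, Tnfsf8, the ligand of Tnfrsf8, Tnfsf11, the ligand of RANK, and Tnfsf18, the ligand of Tnfrsf18. With the receptor Tnfrsf17 they make up the 9 members below the floor, whose differences ran from -0.33 in Tnfrsf17 to 0.44 in Tnfsf4 at 2 weeks and from -0.17 in Tnfrsf17 to 0.37 in Tnfsf4 at 4 weeks. Tnfsf4, which costimulates T cells through Tnfrsf4, had signals of 5.12 with smoke and 4.69 with clean air at 2 weeks, and 5.25 with smoke and 4.88 with clean air at 4 weeks. Fasl, the death ligand of cytotoxic lymphocytes, had 5.81 with smoke and 5.47 with clean air at 2 weeks, and 5.89 with smoke and 5.64 with clean air at 4 weeks. In these 2 genes the smoke pools were the higher ones at signals where the array gives no separate measure of detection. Tnfrsf17, a receptor of plasma cells, was the only receptor among the 9.

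The 6 receptors with a death domain had median differences of 0.04 at both durations, and none passed. Fas, which starts cell death when Fasl binds, had 11.35 with smoke and 11.74 with clean air at 2 weeks. The 4-week signals were 11.57 with smoke and 12.13 with clean air. Both smoke pools were the lower ones, by -0.39 and -0.57, and the effect of -0.48 ± 0.11 (SE) had an adjusted p of 0.125 in limma. As with Tnfrsf12a, the clean-air pools differed by about as much as smoke and clean air did at 2 weeks, 0.39 with the 4-week pool higher. The other feature of Fas also had negative differences, -0.25 and -0.14, but its pools were ordered otherwise. It had 7.78 with smoke and 8.02 with clean air at 2 weeks, and 7.64 with smoke and 7.78 with clean air at 4 weeks. Its highest pool was thus 2-week clean air, and its 2-week smoke pool did not lie below its 4-week clean-air pool.

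Tnfrsf10b, the death receptor for TRAIL, had 7.36 with smoke and 7.88 with clean air at 2 weeks. After 4 weeks it had 7.88 with smoke and 7.90 with clean air. The 2-week smoke pool stands apart from the other 3, and the difference of -0.51 at 2 weeks was -0.02 at 4 weeks. Tnfrsf1a, the receptor of TNF on most cells, had 10.82 with smoke and 10.68 with clean air at 2 weeks and 10.92 with smoke and 10.98 with clean air at 4 weeks. Its differences of 0.14 and -0.06 were smaller than the gap of 0.29 between its clean-air pools. Tnfrsf21, a receptor of neurons and lymphocytes, and Ngfr, the neurotrophin receptor p75, had effects of 0.11 and 0.10.

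Among the 7 costimulatory receptors the median difference was 0.10 at 2 weeks and 0.32 at 4 weeks, and Tnfrsf9 was the 1 member that passed. Tnfrsf1b, the TNF receptor of immune and endothelial cells, had 9.43 with smoke and 9.05 with clean air at 2 weeks. At 4 weeks it had 9.62 with smoke and 9.30 with clean air. The smoke pools were the higher ones, with differences of 0.39 and 0.32, and the effect of 0.35 ± 0.10 (SE) had an adjusted p of 0.226 in limma. The clean-air pools were 0.25 apart.

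Tnfrsf4 and Tnfrsf8, costimulatory receptors of activated T cells, had small negative differences at 2 weeks, -0.13 and -0.09, and positive ones at 4 weeks, 0.47 and 0.37. For Tnfrsf4 the signals were 6.78 with smoke and 6.91 with clean air at 2 weeks, and 7.14 with smoke and 6.68 with clean air at 4 weeks. Tnfrsf4 was the only member, 3.23%, whose smoke difference changed by at least 1.5-fold between the durations, against 5.16% of all genes. Cd40, which antigen-presenting cells use to receive T cell help, differed by 0.09 and 0.08. Tnfrsf18, found on regulatory T cells, differed by 0.14 and 0.0044, and Tnfrsf14, the receptor of Tnfsf14, by 0.10 and -0.07.

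Neither of the 2 receptors of B cell survival factors above the floor passed. Tnfrsf13c, the BAFF receptor of B cells, differed by 0.05 at 2 weeks and -0.38 at 4 weeks. Tnfrsf13b, or TACI, differed by -0.01 and 0.13. In both genes the smoke pools overlapped the clean-air pools.

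Of the 5 receptors of epithelium, stroma and other tissue cells, Tnfrsf12a fell and 4 did not pass. Tnfrsf11a, or RANK, the receptor of Tnfsf11 on osteoclast precursors and dendritic cells, had 7.45 with smoke and 7.06 with clean air at 2 weeks. The 4-week signals were 7.38 with smoke and 6.87 with clean air. Both smoke pools were the higher ones, by 0.39 and 0.50, and the effect of 0.45 ± 0.10 (SE) had an adjusted p of 0.135 in limma. Ltbr, which organises lymphoid tissue, Eda2r, a receptor of ectodysplasin, and Tnfrsf19 had effects of 0.11, 0.03 and -0.12. Tnfrsf19 differed by -0.011 and -0.235, and its other feature by 0.14 and -0.11, so its sign at 2 weeks depends on the feature.

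The decoy receptors are described with Tnfrsf26, the genomic neighbour of Tnfrsf22 and Tnfrsf23. Tnfrsf23, a mouse decoy receptor for TRAIL, had 7.78 with smoke and 7.43 with clean air at 2 weeks. After 4 weeks it had 8.24 with smoke and 7.46 with clean air. The smoke pools were the higher ones, by 0.35 and 0.78, a fold of 1.72 at 4 weeks, and its clean-air pools were 0.03 apart. Its effect of 0.57 ± 0.13 (SE) did not pass limma, with an adjusted p of 0.14. Tnfrsf22, the closely related decoy, had 8.97 with smoke and 8.87 with clean air at 2 weeks, and 9.07 in both 4-week pools. Tnfrsf22 and Tnfrsf23 are near copies of each other, and how far probes of the one bind RNA of the other was not tested. Tnfrsf11b, osteoprotegerin, the soluble decoy of Tnfsf11, differed by 0.07 and 0.04.

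**Figure D3:**
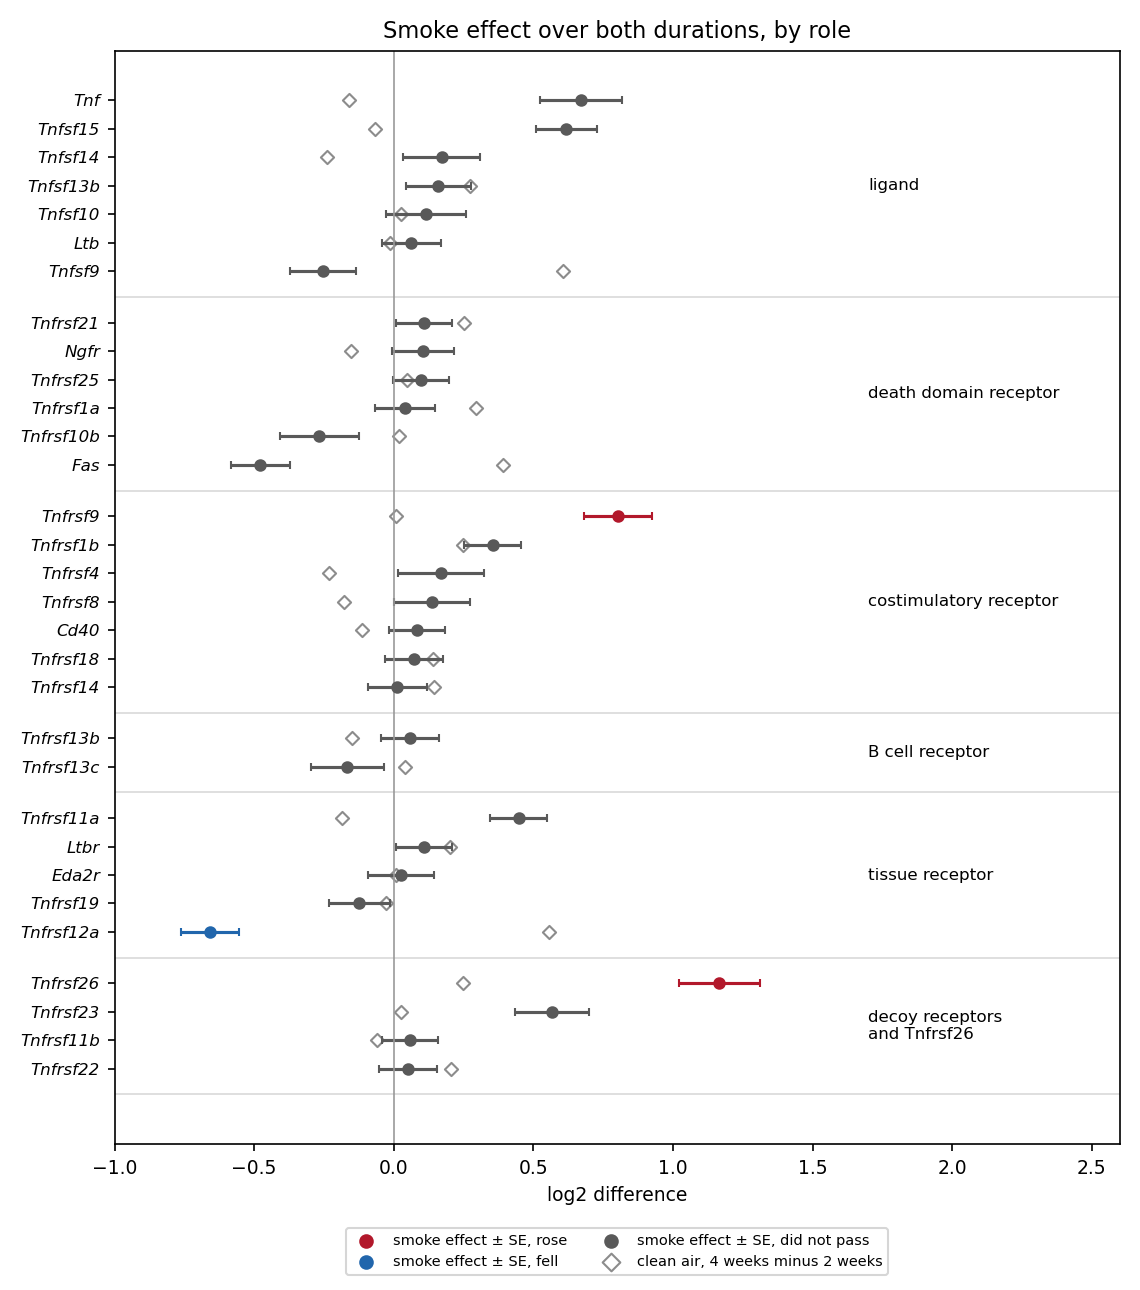
Smoke effect over both durations of the 31 members above the floor, grouped by role from ligands at the top to decoy receptors and Tnfrsf26 at the bottom. The horizontal axis is a log2 difference, filled points with bars are the limma effect ± SE of smoke minus clean air (red rose, blue fell, grey did not pass), and open diamonds are the 4-week minus the 2-week clean-air pool. Tnfrsf26 and Tnfrsf9 rose and Tnfrsf12a fell, and the diamonds of Tnfsf9 (0.61), Tnfrsf12a (0.56) and Fas (0.39) are as far from 0 as many smoke effects.

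Several members lie side by side in the genome. In the order of protein-coding genes in RefSeq, 18 of the 40 members form 7 runs of direct neighbours. Tnfrsf26, Tnfrsf22 and Tnfrsf23 are adjacent on chromosome 7, and their 4-week differences were 1.43, -0.0049 and 0.78. Ltb, Tnf and Lta are adjacent on chromosome 17, and the difference of Tnf at 4 weeks, 0.94, stood beside -0.02 in Ltb and 0.08 in Lta, which was below the floor. Tnfsf15 lies next to Tnfsf8 on chromosome 4, with 2-week differences of 0.73 and 0.39, the second of them below the floor. Within each of these runs the differences were unequal in size.

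The sequence upstream of the start site is shown for members with a smoke difference of at least 1.5-fold that have an entry in the RefSeq promoter table, build GRCm38.p6. Each sequence is the 250 bases before the start, read 5′ to 3′ on the gene's strand, in lower case. Capitals mark matches to either of a pair of motifs, searched on both strands, the kappa-B consensus bound by NF-kB and the AP-1 motif TGANTCA. Tnfrsf9 has 2 annotated start sites and both are given.
Tnfsf15, chr4:63745060-63745309, minus strand: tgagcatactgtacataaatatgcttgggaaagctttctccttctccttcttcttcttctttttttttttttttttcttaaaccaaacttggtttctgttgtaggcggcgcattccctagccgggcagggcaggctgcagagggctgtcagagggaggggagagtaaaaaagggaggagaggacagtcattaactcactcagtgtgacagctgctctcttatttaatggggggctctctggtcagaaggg
Tnf, chr17:35202008-35202257, minus strand: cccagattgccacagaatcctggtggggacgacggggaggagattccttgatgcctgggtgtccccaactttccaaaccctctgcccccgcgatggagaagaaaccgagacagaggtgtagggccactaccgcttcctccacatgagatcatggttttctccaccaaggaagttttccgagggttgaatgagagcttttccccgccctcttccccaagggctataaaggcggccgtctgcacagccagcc
Tnfrsf9, upstream start, chr4:150919905-150920154, plus strand: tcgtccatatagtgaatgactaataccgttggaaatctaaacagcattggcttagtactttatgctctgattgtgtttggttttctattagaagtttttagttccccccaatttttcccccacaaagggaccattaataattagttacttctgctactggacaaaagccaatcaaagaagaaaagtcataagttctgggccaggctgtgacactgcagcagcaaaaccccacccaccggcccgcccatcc
Tnfrsf9, downstream start, chr4:150927749-150927998, plus strand: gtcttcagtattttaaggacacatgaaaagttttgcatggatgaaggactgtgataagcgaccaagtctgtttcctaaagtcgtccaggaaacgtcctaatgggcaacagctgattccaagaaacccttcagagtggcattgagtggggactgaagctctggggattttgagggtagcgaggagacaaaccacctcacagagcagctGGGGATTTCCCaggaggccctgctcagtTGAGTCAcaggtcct
Tnfrsf23, chr7:143685876-143686125, minus strand: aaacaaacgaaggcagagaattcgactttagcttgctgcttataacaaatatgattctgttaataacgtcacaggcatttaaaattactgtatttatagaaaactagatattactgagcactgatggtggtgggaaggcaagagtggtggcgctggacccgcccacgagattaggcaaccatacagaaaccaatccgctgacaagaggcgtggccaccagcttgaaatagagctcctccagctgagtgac
Tnfrsf12a, chr17:23677450-23677699, minus strand: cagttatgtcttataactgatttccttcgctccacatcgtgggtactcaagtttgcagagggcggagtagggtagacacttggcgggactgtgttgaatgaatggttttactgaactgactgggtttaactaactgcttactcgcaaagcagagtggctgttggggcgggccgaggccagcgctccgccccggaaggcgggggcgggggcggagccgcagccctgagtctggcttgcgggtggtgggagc
Matches were found at the downstream start of Tnfrsf9. The kappa-B consensus matched in overlapping frames at -43 to -34 and at -42 to -33 from the start site, and TGAGTCA matched at -15 to -9. In the other 5 windows neither set of letters was found. Over all 32851 promoters of this length, 7.25% hold the kappa-B consensus and 6.75% the AP-1 motif. Among the 35 entries of the 31 members that have an entry, 4 hold the first and 5 the second.

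Genes that carry the signal of these receptors were measured from lists by role. As for the members, no gene named as rising or falling in these lists or the marker lists passed without the duration term, and under centring over the genes above the floor Cd68 was the 1 that did. The adaptors and kinases next to the receptors, such as the TRAF proteins and Casp8, had 18 of 21 genes measured and none passed, with median differences of 0.08 at 2 weeks and -0.02 at 4 weeks. Their larger effects were in Birc3, a ubiquitin ligase induced by NF-kB, at 0.38 with an adjusted p of 0.205, and in Ripk3, a kinase of necroptosis, at 0.28 with an adjusted p of 0.437.

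NF-kB subunits, their inhibitors and induced feedback genes had 16 of 17 genes measured, and 1 rose and none fell. Tnfaip2, a gene induced by TNF, had signals of 9.32 with smoke and 8.76 with clean air at 2 weeks, and 9.64 with smoke and 8.78 with clean air at 4 weeks. Its smoke pools were the higher ones and the effect was 0.71 ± 0.12 (SE) with an adjusted p of 0.0469 in limma, a call that was lost with no floor, at 0.063, and under cyclic loess, at 0.118. The median difference of the list was 0.27 at 2 weeks and 0.23 at 4 weeks, and 12 of the 16 genes were higher at both durations, beside 27.2% of all genes. Nfkbie, an inhibitor of NF-kB, had an effect of 0.50 with an adjusted p of 0.111. Tnip1, which restrains NF-kB with Tnfaip3, had 0.46, with an adjusted p of 0.122. Tnfaip3, the ubiquitin-editing inhibitor, had 0.42, with an adjusted p of 0.217.

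Of the 7 genes that release TNF or control its message, 1 fell and none rose. Zfp36, tristetraprolin, which binds the message of Tnf and speeds its decay, had 11.93 with smoke and 12.81 with clean air at 2 weeks. At 4 weeks it had 12.12 with smoke and 13.19 with clean air. Both smoke pools were the lower ones, and the effect was -0.98 ± 0.11 (SE), 1.97-fold lower, with an adjusted p of 0.0144 in limma, and 0.065 under cyclic loess. Timp3, an inhibitor of the sheddase of TNF, had an effect of -0.35 with an adjusted p of 0.233. Adam17, the sheddase itself, had 0.18, with an adjusted p of 0.62.

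Marker genes of the cells that carry these ligands and receptors also differed between the pools. Of 10 alveolar macrophage markers 8 were measured, and Marco, Cd68, Itgax and Mrc1 rose. Their effects were 2.70, 2.28, 1.93 and 0.78 with adjusted p of 0.00466, 0.00113, 0.00286 and 0.0444 in limma. Under cyclic loess Marco, Cd68 and Itgax passed and Mrc1 did not, at an adjusted p of 0.0962. The call of Mrc1 was also lost with no floor, at an adjusted p of 0.0547 in limma. The other 4 markers did not pass, and Pparg, Fabp4 and Car4 had effects of 0.38, 0.30 and 0.26. Siglecf had an effect of -0.0025, with differences of -0.13 at 2 weeks and 0.13 at 4 weeks. The genes that rose make up most of the summed intensity below in each pool. The summed intensity of the 8 markers was 23528 with smoke and 12290 with clean air at 2 weeks, and 35139 with smoke and 13559 with clean air at 4 weeks. The summed level was higher with smoke at both times. So were the signals of 14 of the 31 members, 45.2% against 27.2% of all genes. Tnf, Tnfrsf1b, Tnfrsf9, Tnfrsf23 and Tnfrsf26 are among them. The part of the marker change in the members' differences was not tested.

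Of 11 T and NK cell markers 8 were measured and none passed. Their median difference was 0.11 at 2 weeks and 0.26 at 4 weeks, and their summed intensity was 1349 with smoke and 1103 with clean air at 2 weeks and 1478 with smoke and 1269 with clean air at 4 weeks. Of 8 dendritic cell markers 7 were above the floor and Itgae rose, with an effect of 0.93 and an adjusted p of 0.0191 in limma, and 0.0652 under cyclic loess. The summed intensity of all 8 was 2323 with smoke and 2030 with clean air at 2 weeks and 2466 with smoke and 1980 with clean air at 4 weeks. Of the 8 T and NK markers 4 were higher at both durations, beside 27.2% of all genes, and 4 had opposite signs. Cd3e differed by 0.94 and 0.30, and much of the higher T and NK sum at 2 weeks is this gene. Its clean-air pools were 0.88 apart, with the 4-week pool higher. Cd3d differed by 0.07 and 0.33, Cd3g by -0.07 and 0.31, and Cd8a by 0.0050 and -0.27. Of the 7 dendritic markers 3 were higher at both durations, 1, Zbtb46, was lower at both, and 3 had opposite signs. In both lists the sums were higher with smoke, as was Tnfrsf9, and their part in its difference was not tested.

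Of the 7 B cell markers measured none passed, and none of the 6 plasma cell markers did. The B cell sum was 2463 with smoke and 2318 with clean air at 2 weeks, and 1881 with smoke and 2130 with clean air at 4 weeks. Tnfrsf13c, the BAFF receptor, shared the lower value in the 4-week smoke pool. Fcer2a went the other way and was the 1 B cell marker higher at both durations, by 0.50 and 0.75. Its effect of 0.62, the largest of the list, had an adjusted p of 0.0639 in limma. Of the others 3 were lower at both durations and 3 had opposite signs. The plasma cell sum was 9931 with smoke and 11123 with clean air at 2 weeks, and 12632 with smoke and 10757 with clean air at 4 weeks. Most of that sum is Xbp1, and the median difference of the list was 0.21 at 2 weeks and 0.20 at 4 weeks, with 4 of 6 genes higher at each. Of the lymphatic and follicle genes, 4 were above the floor and Cxcl13, which draws B cells into follicles, rose with an effect of 0.86 and an adjusted p of 0.0321 in limma, and 0.0934 under cyclic loess. The sum over its 5 genes with a feature was 2365 with smoke and 1768 with clean air at 2 weeks, and 3429 with smoke and 2173 with clean air at 4 weeks. Cxcl13 makes up much of it, and the median difference of the 4 genes was 0.19 at 2 weeks and 0.03 at 4 weeks, with Ccl19 at -0.05 and -0.06 and Cxcr5 at 0.17 and -0.39.

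None of the 7 neutrophil markers passed. Their sum was 2531 with smoke and 2650 with clean air at 2 weeks, close together, but 1980 with smoke and 4876 with clean air at 4 weeks. The 4-week clean-air pool stands apart, and its median neutrophil marker was 0.72 above the 2-week clean-air pool. The markers were unequal, with 4-week smoke differences from -2.05 in S100a9 to -0.04 in Ly6g. At 2 weeks they ran from -0.61 in S100a9 to 0.22 in S100a8. The clean-air pools of Ly6g were 0.29 apart. Tnfrsf12a, Fas and Tnfsf9 were also highest in that pool, and the part of the neutrophil markers in their differences was not tested. The lowest deposited intensity of any feature was 4.93, so no marker of any list could be at 0.

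**Figure D4:**
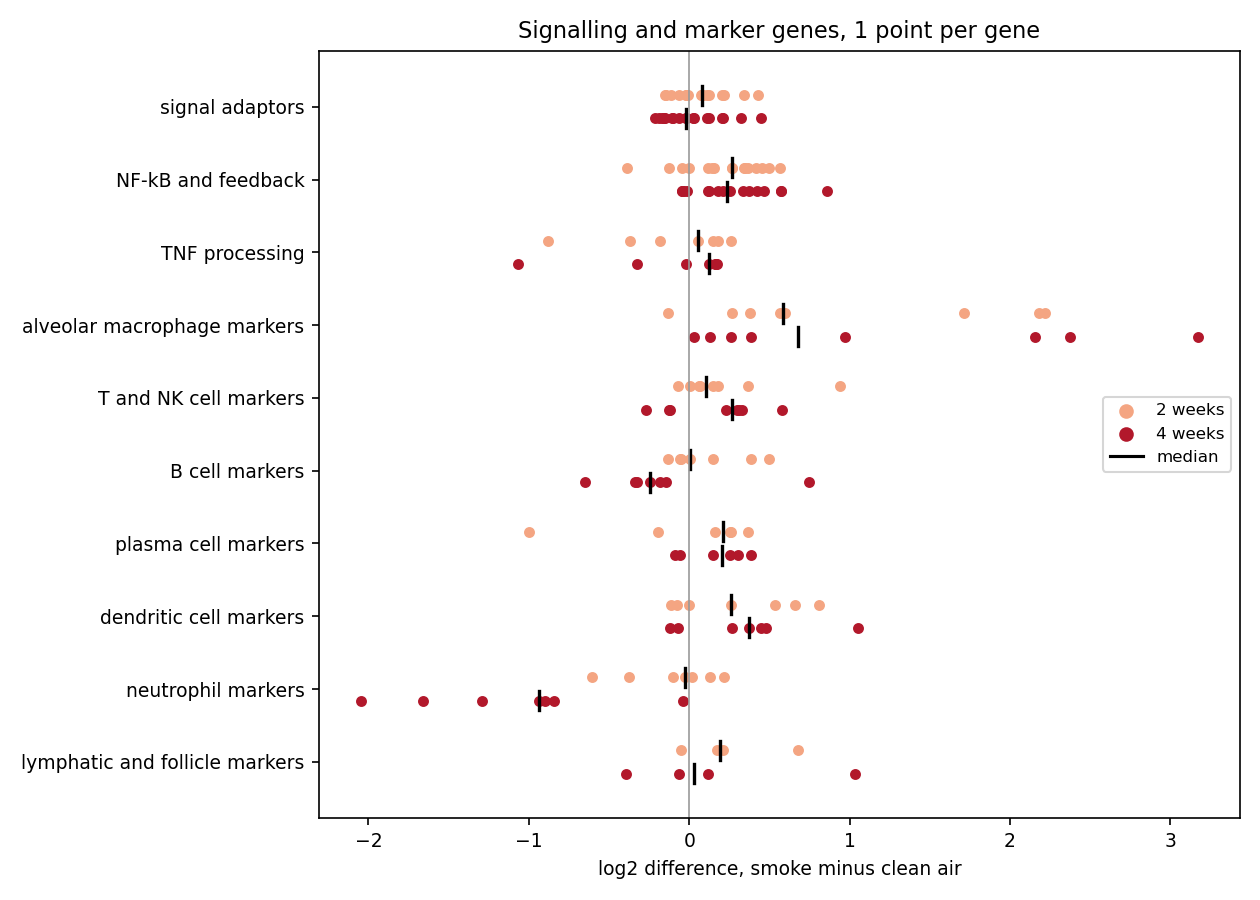
Smoke differences of genes of the signalling and marker lists, with 1 point per gene above the floor. The horizontal axis is the log2 difference, smoke minus clean air, light points are 2 weeks, dark points are 4 weeks and black ticks are list medians. Alveolar macrophage markers reach the right side with medians of 0.58 and 0.68, the NF-kB list has medians of 0.27 and 0.23, and the neutrophil markers lie to the left at 4 weeks with a median of -0.93.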

How the data were processed

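Lung RNA of 4 pools was measured on 4 arrays. The authors deposited linear intensities made by RMA, with Affymetrix Expression Console 1.4.1 named in the submitters' processing notes. Per the labels' protocols, the RNeasy Mini Kit and the GeneChip WT PLUS kit were used. RMA makes the arrays' distributions alike, so a shift of all genes in 1 pool is not seen. Genome build and filters: not given in the sources used here. Array medians ran from 58.8 to 61.7.

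The log2 of each intensity was taken. Of 65956 features, 30604 carried 1 symbol, and of these 22818 were matched to RefSeq to update symbols. The feature with the highest mean stands for its gene. limma 3.58.1 in R 4.3.3 (lmFit, eBayes) fitted smoke and duration on the 18084 genes above the floor, with 1 residual degree of freedom and 5.38 prior ones and Benjamini-Hochberg adjustment over all of them. The fit was also run on simulated data drawn from its own model. That run cannot show whether the model suits these 4 pools.

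Values in all pools are given for members that pass or differ at least 1.5-fold at either duration or between the clean-air pools, and for their partners. From the lists, genes that pass and up to 3 others with large effects are named. Values in all pools of Tnfrsf11a, Tnfrsf1b, Tnfrsf4, Tnfrsf10b, Tnfrsf22, Tnfsf4, Fas and Fasl were added after they were seen. The members and lists were chosen with earlier results of these data known. Other scalings, no floor, no duration term, the mean of a gene's features and leaving out a pool together with the duration term were tried. Median centring over the genes above the floor and a reading as base e were added after seeing the data.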

Additional observations from a re-analysis of the deposited data

Results flagged for a closer look

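Tnfrsf4, a costimulatory receptor of activated T cells, had smoke differences of opposite sign at the 2 durations, 0.47 at 4 weeks and -0.13 at 2 weeks. The 4-week smoke difference exceeded the 2-week one by 0.59 on the log2 scale. With 1 pool per group this difference between the durations was not tested. Among all genes, 5.16% changed by as much.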

How the results depend on the processing

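In place of 3, the members passing were 6 under median centring over all features, 2 with no floor, and 0 under cyclic loess, with no duration term and under median centring over the genes above the floor, the last chosen after seeing the data. In each of these 0 cases 9 members had an unadjusted p under 0.05. With 3 pools and the duration term no residual degree of freedom is left, so each pool was left out together with that term, which by itself gives 0. These fits also gave 0 members passing in every case (5 to 9 at an unadjusted p under 0.05), with the pool left alone in its arm assumed to vary like the others, and do not show what a pool does by itself. Over all genes, 265 passed, against 585 under median centring, 72 under cyclic loess, 224 with no floor, 0 with no duration term (1163 at an unadjusted p under 0.05) and 8 under centring over the genes above the floor. In the fits without a pool and the term 0 to 34 genes passed, 34 of them without the 4-week clean-air pool, 6 without the 2-week clean-air pool, and 0 without either smoke pool (1469 and 597 at an unadjusted p under 0.05 without the 2-week and the 4-week one). Members at least 1.5-fold apart between the clean-air pools were 2 instead of 1 under median centring and under cyclic loess, with Tnfrsf12a added. Under the same scalings the members past 1.5-fold at 2 weeks were 3 in place of 4, with Tnfrsf12a lost. At 4 weeks median centring gave 6 in place of 5, with Fas added. Read as base e, chosen after seeing the data, the members past 1.5-fold would be 1 in place of 4 at 2 weeks, 3 in place of 5 at 4 weeks and 0 in place of 1 between the clean-air pools. The effect of Tnfsf9 ran from -0.56 to 0.051 over the fits without a pool and the term, turning without the 4-week clean-air pool, where smoke of both durations is set against 2-week clean air alone. With the term kept it would be -0.10, the 2-week difference. That of Tnfrsf12a ran from -0.94 to -0.38, of Tnfrsf26 from 0.78 to 1.55 and of Tnfrsf9 from 0.63 to 0.98. Of the 21 members not described in full, 13 changed sign in some fit without a pool and the term, where the durations are unbalanced between smoke and clean air, 0 did in fits of all 4 pools, and 0 passed. Median centring shifted the median change of the smoke effect between the durations to -0.13, against -0.04 as reported, and its spread was pooled fully over genes. Apart from these scalings and refits, the cause was not tested. A replicate block could not be added, since each group is 1 pool and the labels carry no replicate numbers, and the duration term already sets the smoke and clean-air pools of 1 duration side by side.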
